A study of Homo sapiens with 8 samples.

Results

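YAP1 and WWTR1 (TAZ), the TEAD factors TEAD1 and TEAD4, and 6 genes known as targets of these factors (CTGF, CYR61, ANKRD1, AXL, AMOTL2 and LATS2) were followed in 2 pancreatic cancer cell lines after silencing of the homeobox gene HOXB7. They were taken as the probes, controls left out, whose gene name on the array is 1 of these 10 symbols. CTGF and CYR61 are the older names of CCN2 and CCN1. Each of the 10 genes had 1 probe, so 10 of 34127 probes and 10 of 27363 genes on the array are described here. RNA was hybridised to one-color Agilent arrays in 4 groups of 2 arrays each. MIA PaCa-2 is a pancreatic carcinoma line, and Capan-1 came from a liver metastasis of a pancreatic ductal adenocarcinoma. In both lines, cells collected 48 h after transfection with HOXB7 siRNA (Dicer-substrate duplexes at 10 nM, delivered with a lipid reagent) were compared with parental cells, which were not transfected. No array of cells given a scrambled siRNA was analysed here, and the duplex is not named in the labels, so transfection itself and loss of HOXB7 cannot be told apart. The lines were maintained in different media, and the methods state that cells were plated in RPMI for transfection.

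YAP1 and WWTR1 are coactivators with no DNA-binding domain of their own. When the Hippo kinases STK3 and STK4 activate LATS1 and LATS2, the LATS kinases phosphorylate both coactivators. The phosphorylated proteins are then held in the cytoplasm and degraded. When the kinases are inactive, YAP1 and WWTR1 enter the nucleus and bind TEAD factors, which carry them to promoters and enhancers of genes for adhesion, growth and matrix. Because this control acts on the proteins, mRNA levels of YAP1, WWTR1 and the TEAD factors are not a measure of their activity. The target genes are the usual transcript readout, and LATS2 and AMOTL2 encode inhibitors of YAP1 that the pathway itself induces.

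The TEAD core motif is short and can be read in the promoters of several of these genes. The sequences below are shown because CTGF and ANKRD1, both standard readouts, hold more than 1 copy. They are the bases upstream of the RefSeq transcription start (GRCh38.p14), 5′ to 3′ on the strand of the gene, and the capitals mark the motif CATTCC or its reverse complement GGAATG.
CTGF (chr6:131951373-131951622, minus strand): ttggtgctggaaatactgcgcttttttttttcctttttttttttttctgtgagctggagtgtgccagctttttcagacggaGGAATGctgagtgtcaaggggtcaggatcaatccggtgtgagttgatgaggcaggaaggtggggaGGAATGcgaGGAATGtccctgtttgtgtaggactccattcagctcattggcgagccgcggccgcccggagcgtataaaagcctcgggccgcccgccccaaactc
ANKRD1 (chr10:90921088-90921337, minus strand): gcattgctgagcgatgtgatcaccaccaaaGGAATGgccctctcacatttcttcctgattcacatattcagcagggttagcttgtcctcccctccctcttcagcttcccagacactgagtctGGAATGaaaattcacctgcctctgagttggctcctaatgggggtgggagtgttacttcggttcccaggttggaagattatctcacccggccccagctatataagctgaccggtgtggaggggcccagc
YAP1 (chr11:102110197-102110446, plus strand): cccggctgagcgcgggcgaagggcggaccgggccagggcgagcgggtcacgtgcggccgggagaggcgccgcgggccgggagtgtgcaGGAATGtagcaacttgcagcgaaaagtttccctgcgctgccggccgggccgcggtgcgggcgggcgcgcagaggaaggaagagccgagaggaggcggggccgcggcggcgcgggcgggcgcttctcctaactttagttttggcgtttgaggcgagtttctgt

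Of the 10 genes, 7 were matched in the RefSeq promoter table, with 10 promoters, and CYR61, TEAD1 and TEAD4 were not. Each promoter spans 300 bases, 250 before the start and 50 after it, and both strands were searched. The motif stood in 6 of these 10 promoters and in 14.0% of all 35116 promoters. CTGF held 3 copies, beginning 169, 104 and 95 bases before the start, and 44 of all promoters (0.125%) held 3 or more. ANKRD1 held 2 copies, beginning 220 and 128 bases before the start, and 1.36% of all promoters held 2 or more. YAP1, AXL, AMOTL2 and LATS2 held 1 copy each, and neither promoter of WWTR1 held any. These are matches of letters in a short window, without a measurement of binding, and enhancers lie outside it.

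**Figure D1:**
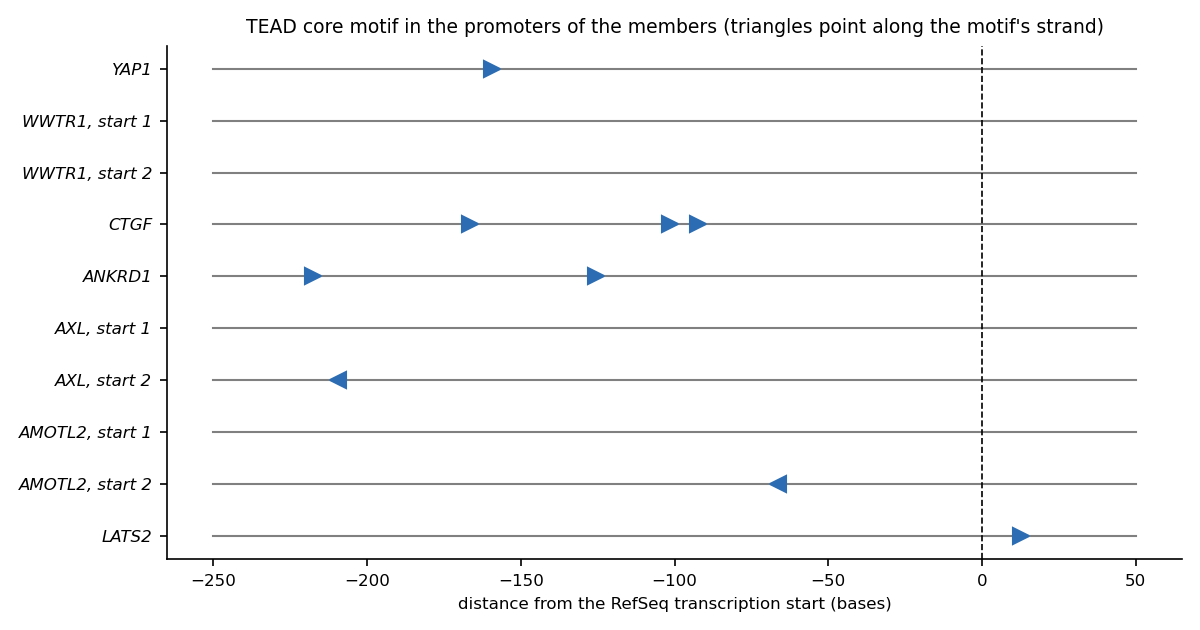
Positions of the TEAD core motif in the RefSeq promoters of the 7 matched genes. Each grey line is 1 promoter, the horizontal axis is the distance from the transcription start in bases, and triangles mark copies of the motif, pointing along its strand. CTGF has 3 copies and ANKRD1 has 2.

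On hg18, the build in the array annotation, the probes lie on chromosome 11 at 101605794 to 101605853 (YAP1), chromosome 3 at 150721283 to 150721342 (WWTR1), chromosome 11 at 12921801 to 12921860 (TEAD1) and chromosome 12 at 3019652 to 3019816 (TEAD4). The 60 bases of the TEAD4 probe cover 165 bases of the genome, whereas the other probes match an unbroken stretch. Those of the targets lie on chromosome 6 at 132311823 to 132311882 (CTGF), chromosome 1 at 85821541 to 85821600 (CYR61), chromosome 10 at 92662542 to 92662601 (ANKRD1), chromosome 19 at 46459235 to 46459294 (AXL), chromosome 3 at 135557432 to 135557491 (AMOTL2) and chromosome 13 at 20445929 to 20445988 (LATS2). The YAP1 probe was printed on 10 spots and every other probe on 1. Each gene thus rests on a single probe, and the criterion of several probes per gene in the study's methods could call none of them. Levels are given as log2 of the background-subtracted intensity minus the 75th percentile of the array, so 0 is the level of that percentile, and levels of different probes are not compared. Of the 10 probes, 9 were well above background on all 8 arrays. ANKRD1 was well above background on 3 arrays, both of parental Capan-1 and 1 of siRNA-treated Capan-1.

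Between 69.25% and 74.34% of spots per array were well above background, and the number of saturated spots was 0 on each array. Since each slide held the arrays of 1 line, with treatments at different positions, line and slide cannot be told apart, nor can position and treatment. HOXB7, the siRNA target, had a level of -4.82 and -4.09 on the parental and -7.76 and -7.78 on the siRNA arrays of MIA PaCa-2. The siRNA arrays were not well above background, so HOXB7 entered the test only through the parental arrays. It was at least 2.45-fold lower there (fitted log2 change -3.32, limma adjusted p = 0.0173), a call lost with the normexp background correction (limma adjusted p = 0.599) and without 1 of 6 arrays: siRNA replicate 1, parental replicate 2 or any array of Capan-1 (limma adjusted p-values of 0.0556 to 0.083). In Capan-1 its levels were -2.48 and -2.34 in parental and -5.26 and -4.80 in siRNA-treated cells. The arrays did not overlap, and the difference of -2.62 (SE 0.26) did not pass the test (limma adjusted p = 0.121). It passed under 4 alternatives, with limma adjusted p-values of 0.0353 (normexp background correction), 0.0182 (no scaling), 0.00894 (spike-in scaling) and 0.0302 (intensity trend). The study reports lower HOXB7 mRNA by qRT-PCR and lower protein by western blot after siRNA in both lines. Of 10 duct epithelial markers, all were well above background in Capan-1 and 7 in MIA PaCa-2, where EPCAM, CDH1 and CFTR were not. The labels do not say that the 2 arrays of a group came from separate cultures, so the p-values measure the spread between these arrays, which may be technical.

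Of the coactivators and TEAD factors, TEAD4, WWTR1 and YAP1 had arrays of MIA PaCa-2 and Capan-1 that did not overlap, whatever the treatment. TEAD4 and WWTR1 passed the test between the parental lines, as did 70.2% of all probes tested. TEAD4 was 4.08-fold higher and WWTR1 1.97-fold higher in parental MIA PaCa-2 than in parental Capan-1. YAP1 and TEAD1 did not pass the test between the lines. After HOXB7 siRNA none of the 4 passed in either line, and the lowest adjusted p among them was that of YAP1 in MIA PaCa-2.

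TEAD4, a DNA-binding factor through which YAP1 and WWTR1 act, had a level of 1.99 and 1.93 on the parental MIA PaCa-2 arrays and 1.97 and 2.05 on the siRNA arrays. In Capan-1 it had -0.11 and -0.03 on the parental arrays and -0.15 and -0.19 on the siRNA arrays. All 4 MIA PaCa-2 arrays were above all 4 Capan-1 arrays, the groups of MIA PaCa-2 overlapped, and in Capan-1 the siRNA arrays lay just below the parental ones. The parental lines differed by 2.03 (SE 0.08, limma adjusted p = 5.03e-06), and this call was kept under every alternative run, with differences of 1.74 to 2.07.

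WWTR1, the paralog of YAP1, had a level of 1.20 and 1.09 in parental and 1.08 and 1.22 in siRNA-treated MIA PaCa-2. In Capan-1 the levels were 0.21 and 0.13 in parental and 0.27 and 0.27 in siRNA-treated cells. Both groups of MIA PaCa-2 overlapped each other and lay above Capan-1. The parental difference was 0.98 (SE 0.09, limma adjusted p = 0.000178).

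YAP1 had a level of 0.25 and 0.28 on the parental and -0.07 and -0.13 on the siRNA arrays of MIA PaCa-2. The Capan-1 arrays gave 0.45 and 0.45 for parental and 0.54 and 0.43 for siRNA-treated cells. The 4 Capan-1 arrays were highest and overlapped by treatment, parental MIA PaCa-2 came next, and its siRNA arrays were lowest without overlap. The siRNA difference in MIA PaCa-2 was -0.36 (SE 0.08, 95% interval -0.56 to -0.16, limma adjusted p = 0.0867), and that in Capan-1 was 0.04 (SE 0.08, limma adjusted p = 0.898). The difference between these effects was -0.40 (SE 0.12, limma adjusted p = 0.316). Between the parental lines YAP1 differed by -0.18 (SE 0.08, limma adjusted p = 0.0896). When the spread was fitted with an intensity trend, YAP1 passed in MIA PaCa-2 (limma adjusted p = 0.0372).

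For TEAD1, another DNA-binding partner of YAP1 and WWTR1, the 4 groups could not be set apart. Its levels were 1.13 and 0.96 in parental and 0.73 and 1.23 in siRNA-treated MIA PaCa-2, and 1.01 and 0.90 in parental and 1.00 and 0.82 in siRNA-treated Capan-1. Each group overlapped the next in order. The 95% interval of its siRNA difference ran from -0.50 to 0.38 in MIA PaCa-2 and from -0.48 to 0.40 in Capan-1, so changes of that size were not detectable with these arrays.

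**Figure D2:**
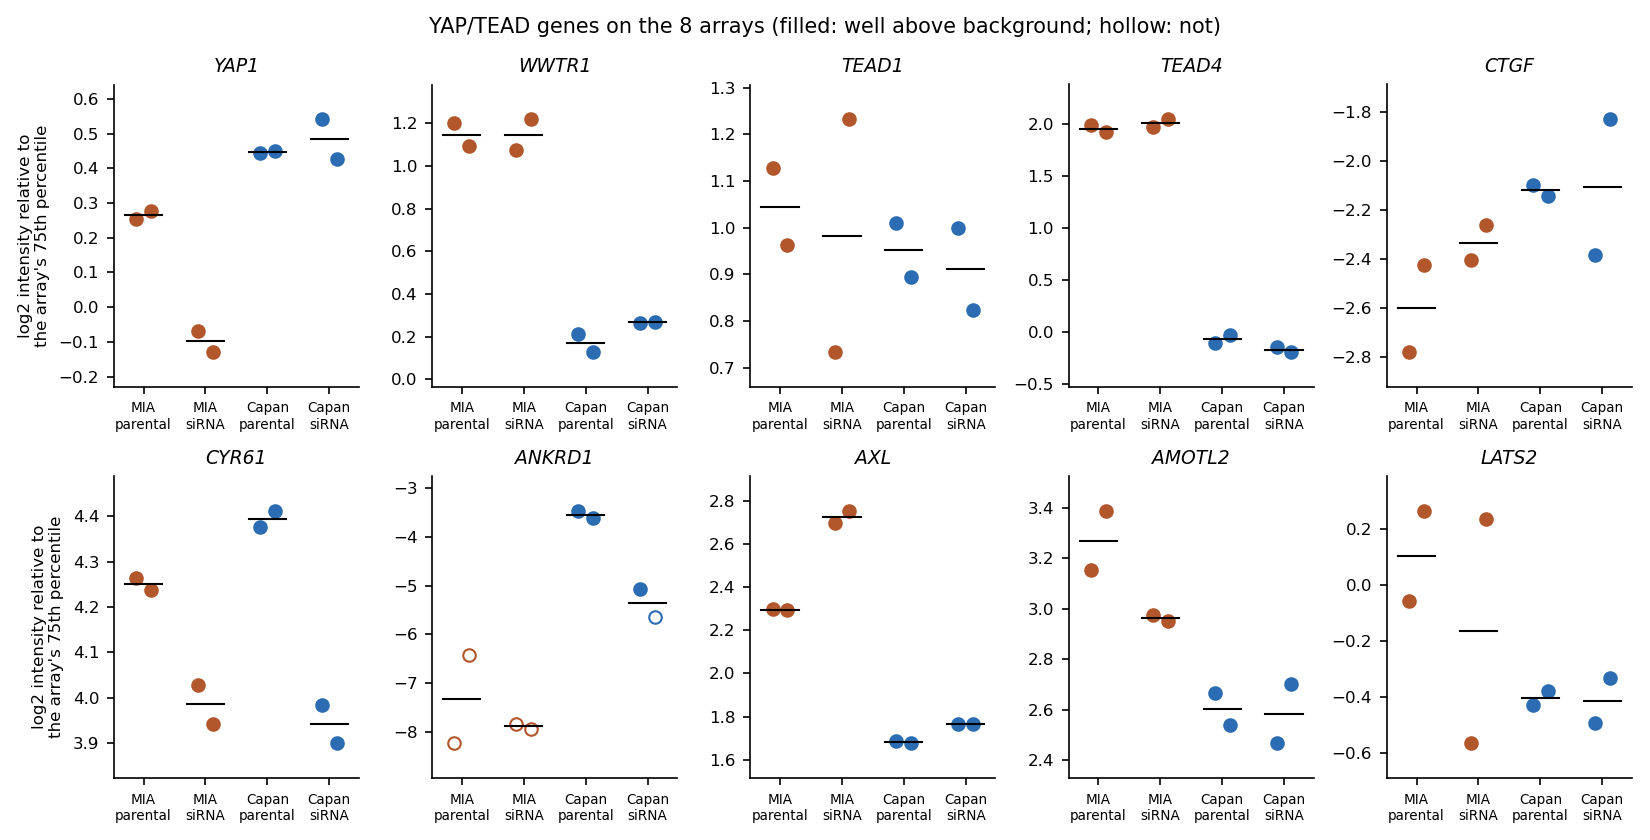
Levels of the 10 genes on the 8 arrays. Each panel is 1 gene with its own vertical scale, in log2 intensity relative to the 75th percentile of the array. Points are single arrays (MIA PaCa-2 brown, Capan-1 blue; hollow where not well above background) and bars are group means of 2 arrays. For TEAD4, WWTR1, YAP1, AXL, AMOTL2 and ANKRD1 the arrays of MIA PaCa-2 and Capan-1 do not overlap. After siRNA, CYR61 lies lower and AXL higher in both lines.

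After HOXB7 siRNA in MIA PaCa-2, 0 of the 9 genes tested passed the threshold (limma adjusted p under 0.05), against 1.92% of the 23717 probes tested. With 1 array left out that share of all probes was 0.0126% (without any array of Capan-1) to 0.887%. AXL was highest relative to parental cells and YAP1, AMOTL2, LATS2 and CYR61 were on the lower side. At an unadjusted p under 0.05 there were 3 genes (YAP1, AXL and CYR61), against 20.5% of all probes. The siRNA arrays did not overlap the parental arrays for 5 of the 9 genes, against 51.4% of all probes. The median difference of the 9 genes was -0.06, beside 0.02 over all genes tested. ANKRD1 was not tested here because it was not well above background on any array of this line.

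AXL, a receptor tyrosine kinase, had a level of 2.30 and 2.29 in parental and 2.70 and 2.75 in siRNA-treated MIA PaCa-2. Both siRNA arrays were above both parental arrays, by more than the spread within either pair. The difference was 0.43 (SE 0.07, 95% interval 0.25 to 0.61, limma adjusted p = 0.0529), or 1.35-fold. In Capan-1 the levels were 1.68 and 1.68 in parental and 1.77 and 1.77 in siRNA-treated cells. The siRNA arrays of AXL thus lay above the parental arrays in both lines, and the share of all probes with that pattern was not computed. The difference in Capan-1 was 0.09 (SE 0.07, limma adjusted p = 0.66), and the effects in the lines differed by 0.34 (SE 0.10, limma adjusted p = 0.339). AXL passed in MIA PaCa-2 under 4 alternatives, with adjusted p-values of 0.0121 (intensity trend), 0.0243 (normexp background correction), 0.0297 (only probes above background on all arrays) and 0.0443 (quantile scaling) by limma.

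CYR61, a secreted matrix protein and an early target of YAP1, was the only gene of the 10 whose siRNA arrays lay below the parental arrays in both lines. Its levels were 4.27 and 4.24 in parental and 4.03 and 3.94 in siRNA-treated MIA PaCa-2. In Capan-1 they were 4.38 and 4.41 in parental and 3.98 and 3.90 in siRNA-treated cells. All 4 siRNA arrays were thus below all 4 parental arrays, but 10.6% of the 21539 probes tested in both lines had both siRNA arrays below both parental arrays in each line. The difference was -0.27 (SE 0.08, limma adjusted p = 0.151) in MIA PaCa-2 and -0.45 (SE 0.08, limma adjusted p = 0.201) in Capan-1. The effects differed by 0.19 (SE 0.12, limma adjusted p = 0.593). With the normexp background correction CYR61 passed in both lines, at adjusted p-values of 0.0409 and 0.0314 by limma, and it stayed negative under every alternative run.

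CTGF, the secreted relative of CYR61, did not follow it. Its levels were -2.78 and -2.42 in parental and -2.40 and -2.26 in siRNA-treated MIA PaCa-2, so the siRNA arrays were the higher ones there. In Capan-1 they were -2.10 and -2.14 in parental and -2.38 and -1.83 in siRNA-treated cells, which overlapped. The differences were 0.27 (SE 0.21, limma adjusted p = 0.521) and 0.01 (SE 0.21, limma adjusted p = 0.99), neither beyond the spread between arrays.

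In Capan-1, 0 of the 10 genes tested passed the threshold, against 0.00428% of the 23376 probes tested, which is 1 probe. CYR61 and ANKRD1 lay lower after siRNA, and the differences of the other 8 genes were between -0.10 and 0.10. At an unadjusted p under 0.05 there were 2 genes (CYR61 and ANKRD1), against 12.4% of all probes. ANKRD1 was tested there only because both parental arrays were well above background. For 5 of the 10 genes the siRNA and parental arrays did not overlap, against 54.3% of all probes. The median was -0.01, beside 0.00 over all genes tested.

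ANKRD1, a nuclear ankyrin repeat protein whose gene is a sensitive target of YAP1, had a level of -3.46 and -3.62 on the parental Capan-1 arrays. On the siRNA arrays it had -5.06, well above background, and -5.64, not well above it. ANKRD1 entered the test only through the parental arrays, where it was higher. The arrays did not overlap, and the difference was -1.81 (SE 0.56, 95% interval -3.18 to -0.44, limma adjusted p = 0.327). With the normexp correction, whose offset compresses dim probes, it was -0.25. The 4 MIA PaCa-2 arrays lay between -8.24 and -6.42, not well above background.

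AMOTL2, an angiomotin that binds YAP1, had a level of 3.15 and 3.39 in parental and 2.97 and 2.95 in siRNA-treated MIA PaCa-2, a difference of -0.31 (SE 0.13, limma adjusted p = 0.246). In Capan-1 its levels were 2.67 and 2.54 in parental and 2.47 and 2.70 in siRNA-treated cells, which overlapped. LATS2, a kinase that phosphorylates YAP1, was the most variable of the 9 genes in siRNA-treated MIA PaCa-2, with -0.57 and 0.24, against -0.06 and 0.27 in parental cells. In Capan-1 LATS2 had -0.43 and -0.38 in parental and -0.49 and -0.33 in siRNA-treated cells. Its siRNA differences were -0.27 (SE 0.27) in MIA PaCa-2 and -0.01 (SE 0.27) in Capan-1, within the spread between arrays.

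**Figure D3:**
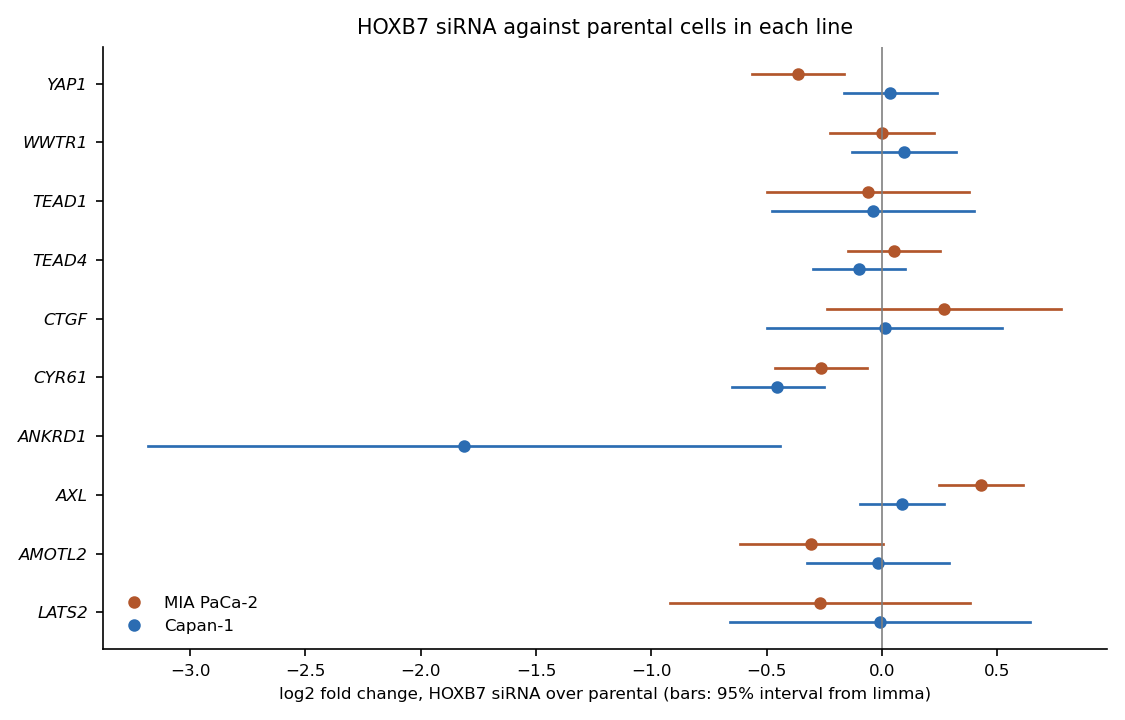
Difference between HOXB7 siRNA and parental cells for each gene. The horizontal axis is the log2 fold change, points are the fitted values in MIA PaCa-2 (brown) and Capan-1 (blue), and bars are 95% intervals from limma before adjustment. The intervals of CYR61 lie below 0 in both lines. In MIA PaCa-2 that of YAP1 lies below 0 and that of AXL above 0. That of ANKRD1 lies below 0 in Capan-1, where it entered the test only through the parental arrays. No gene passed after adjustment over all probes.

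Whether the siRNA effect differed between the lines was tested in the same fit, and 0 of the 10 genes passed, against 0.00783% of 25554 probes. At an unadjusted p under 0.05 there were YAP1 and AXL, against 11.1% of all probes. None of the siRNA differences of these genes can therefore be called particular to 1 line. A rule modelled on the interval of the study was also run. Both siRNA arrays must lie outside the interval that holds 99% of the ratios between the parental arrays at like intensity. It was applied to scaled levels of single probes, with a window chosen here and without the criterion of several probes per gene. Each siRNA array was set against the parental array of the same replicate number, although deviations of same-numbered arrays hardly correlated. The other pairing was not run, and calls near the limits could differ with it. In MIA PaCa-2 the rule called 0 of the 9 genes, and in Capan-1 it called 0 of the 10, against 0.499% and 1.68% of all probes. Over all probes it called 49 higher and 69 lower in MIA PaCa-2, and 219 higher and 172 lower in Capan-1. The study lists more genes for MIA PaCa-2 than for Capan-1, whereas here more probes were called in Capan-1. The cause of this difference was not tested. Of the 10 genes, the nearest to a call were CYR61 and ANKRD1. CYR61 had ratios of -0.39 and -0.51 against limits of ±0.42 in Capan-1, and those of ANKRD1 there were -1.59 and -2.03 against ±1.67.

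Interferon-stimulated genes, which cells can induce on transfection of double-stranded RNA, were looked at beside these differences. The summed level of 12 such genes was 5.84 to 5.96 on the siRNA and 5.28 to 5.30 on the parental arrays of Capan-1, whereas MIA PaCa-2 had 5.99 to 6.05 on the siRNA and 6.19 to 6.23 on the parental arrays. In Capan-1, 11 of the 12 genes had a positive difference, with a median of 0.47 and a largest value of 1.22. An unadjusted p under 0.05 was reached by 8, against 12.4% of all probes, but 0 passed after adjustment, against 0.00428%. In MIA PaCa-2, 6 of the 12 were positive, with a median of -0.01 and a largest value of 2.09. An unadjusted p under 0.05 was reached by 6, against 20.5% of all probes, and 2 passed as higher, against 1.17% of all genes. Their part in the differences of CYR61, ANKRD1, AXL and YAP1 was not tested.

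The untreated lines differed widely, and 5 of the 10 genes passed the test between them. TEAD4, WWTR1, AMOTL2 and AXL were higher in parental MIA PaCa-2, and ANKRD1 was lower. This share is to be read against 70.2% of the 24968 probes tested, with 39.2% higher and 31.0% lower in MIA PaCa-2. The median difference of the 10 genes was 0.30, beside 0.10 over all genes tested. Among the target genes, AMOTL2 was 1.59-fold higher (log2 difference 0.67, SE 0.13, limma adjusted p = 0.00378) and AXL 1.53-fold higher (0.62, SE 0.07, limma adjusted p = 0.000521) in MIA PaCa-2. Both calls were lost when arrays were scaled on the spike-in probes (limma adjusted p = 0.0739 for AMOTL2 and 0.141 for AXL), where CTGF passed (limma adjusted p = 0.0298). ANKRD1 was at least 4.96-fold lower in MIA PaCa-2 (limma adjusted p = 0.00129), with a fitted difference of -3.79 that became -0.52 under the normexp correction. It entered the test through Capan-1, where it was well above background. The remaining 5 genes did not pass. Their differences were -0.48 (SE 0.21, limma adjusted p = 0.081) for CTGF, -0.18 for YAP1, -0.14 (SE 0.08, limma adjusted p = 0.161) for CYR61, 0.09 (SE 0.18) for TEAD1 and 0.51 (SE 0.27, limma adjusted p = 0.133) for LATS2. With the normexp correction the difference of LATS2 was 0.47 and passed (limma adjusted p = 0.0447). LATS2 passed without either array of siRNA-treated MIA PaCa-2 (limma adjusted p = 0.0237), and CTGF without either array of siRNA-treated Capan-1 (limma adjusted p = 0.032), arrays that enter this comparison only through the shared spread.

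The other genes of the pathway were taken from 3 lists. The first holds 31 upstream genes (kinases, scaffolds and junction proteins that act on YAP1). After siRNA, 1 of 29 tested genes was higher in MIA PaCa-2 and 0 were lower, against 1.17% and 1.12% of all genes, and 0 of 30 passed in Capan-1. The gene was STK4, a Hippo kinase, where 1 of its 2 probes rose by 0.70 (SE 0.10, limma adjusted p = 0.0389) and the brighter one differed by 0.10 (SE 0.08, limma adjusted p = 0.511). In Capan-1 the smallest p-values among the brightest probes of these genes were those of RASSF5, which binds the Hippo kinases, at -0.43 (SE 0.12, limma adjusted p = 0.305), and WTIP, a LATS inhibitor, at -0.33 (SE 0.10, limma adjusted p = 0.32). The dimmest of the 3 probes of MOB1B, a cofactor of the LATS kinases, differed by -0.72 (SE 0.21, limma adjusted p = 0.31) and its brightest by 0.34 (SE 0.33, limma adjusted p = 0.699).

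The parental lines differed in 26 of 30 upstream genes tested, 9 higher and 17 lower in MIA PaCa-2, against 40.1% higher and 31.7% lower of 20176 genes. The median was -0.43, beside 0.10 over all genes. WTIP was higher in MIA PaCa-2 by 2.61 (SE 0.10), YWHAQ, a 14-3-3 protein, by 1.61 (SE 0.09), NF2, which activates the LATS kinases, by 1.26 (SE 0.10) and LATS1 by 1.25 (SE 0.25). LATS1 did not pass with the normexp correction (limma adjusted p = 0.124). Lower genes were WWC1 (KIBRA), a scaffold of the LATS kinases, with a difference of -4.69 (SE 0.12), and AJUBA, which inhibits LATS, with -2.80 (SE 0.09). AMOT, the angiomotin related to AMOTL2, was not well above background in MIA PaCa-2 and at least 7.80-fold lower there (log2 difference -0.88 with the normexp correction). It entered the test only through Capan-1. The largest adjusted p among these 7 genes by limma was 0.00476, for LATS1.

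The second list holds 8 other TEAD factors and TEAD-binding cofactors. After siRNA, 0 of 6 genes tested in MIA PaCa-2 passed and 0 of 7 tested in the Capan-1 comparison. VGLL4, which competes with YAP1 for TEAD, differed by 0.46 (SE 0.12, limma adjusted p = 0.108) in MIA PaCa-2, and VGLL1, a cofactor of TEAD, by -0.69 (SE 0.24, limma adjusted p = 0.356) in Capan-1. Between the parental lines 4 of 7 passed, 1 higher and 3 lower in MIA PaCa-2, against 40.1% higher and 31.7% lower of all genes. TEAD2 was higher in MIA PaCa-2 by 1.58 (SE 0.18, limma adjusted p = 0.000441). VGLL4 was lower, with a difference of -0.49 (SE 0.12, limma adjusted p = 0.0106), a call lost without Capan-1 parental replicate 2 (limma adjusted p = 0.062) and without scaling (limma adjusted p = 0.0714). The dimmer probe of VGLL4 differed by -1.17 (SE 0.21, limma adjusted p = 0.003). FAM181A was lower, with a difference of -1.05 (SE 0.16, limma adjusted p = 0.00165). VGLL1 was at least 7.06-fold lower (limma adjusted p = 2.7e-05). Neither parental array of MIA PaCa-2 was well above background for it, so it entered the test only through Capan-1. With the normexp correction these differences were smaller but passed, at 0.54 for TEAD2, -0.63 for VGLL1 and -0.63 for FAM181A.

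The third list holds 23 other known targets of YAP1 and TEAD, among them AJUBA, which is also on the first. In MIA PaCa-2, 2 of 17 tested genes passed as lower after siRNA and 0 as higher, against 1.12% and 1.17% of all genes. Of the 17, 12 had a positive difference, and the median was 0.14, beside 0.02 over all genes. BIRC5 (survivin), which works in mitosis and in blocking apoptosis and is also a cell cycle gene, fell by 0.72 on the log2 scale (SE 0.08, limma adjusted p = 0.0288). CCDC80, a matrix protein, fell by 0.87 on the log2 scale (SE 0.11, limma adjusted p = 0.0315). Both calls were lost with any 1 of the 8 arrays left out, with limma adjusted p-values of 0.0694 to 0.0996 for BIRC5 and 0.0706 to 0.134 for CCDC80. The same held for STK4, at 0.0695 to 0.154 by limma.

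In Capan-1, 0 of 20 genes of this list passed. MYOF, a membrane repair protein, differed by -0.34 (SE 0.09, limma adjusted p = 0.295) and BIRC5 by -0.30 (SE 0.08, limma adjusted p = 0.301). The dimmer probe of NT5E (CD73) differed by -0.37 (SE 0.09, limma adjusted p = 0.275) and its brighter one by -0.15 (SE 0.11, limma adjusted p = 0.615). The siRNA effects on CCDC80 differed between the lines by -0.95 (SE 0.16, limma adjusted p = 0.153), and 0 of the genes of the 3 lists passed in that comparison.

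Between the parental lines 17 of 20 genes of the list passed, 9 higher and 8 lower in MIA PaCa-2. Over all genes tested, 40.1% were higher and 31.7% lower. NT5E was higher by 3.19 (SE 0.11), ASAP1 by 1.59 (SE 0.11) and TAGLN, an actin-binding protein, by 0.95 (SE 0.13). The dimmer probe of NT5E differed by 0.44 (SE 0.09). IGFBP3, which binds insulin-like growth factors, was lower, with a difference of -10.64 (SE 0.15), as were F3 (tissue factor) with -9.08 (SE 0.40) and EDN1 (endothelin-1) with -7.07 (SE 0.12), each with 1 of the 2 parental MIA PaCa-2 arrays well above background. The dimmer probe of EDN1, well above background on all 8 arrays, differed by -3.51 (SE 0.19). TGFB2 was not well above background in MIA PaCa-2 and at least 34.2-fold lower there. Like IGFBP3, F3 and the brighter probe of EDN1, it entered the test only through Capan-1. The sizes depend on how the background is treated, and with the normexp correction the differences were -6.98 for IGFBP3, -5.54 for F3, -3.33 for the brighter probe of EDN1, -1.81 for TGFB2 and 0.61 for TAGLN, with the same direction and call.

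**Figure D4:**
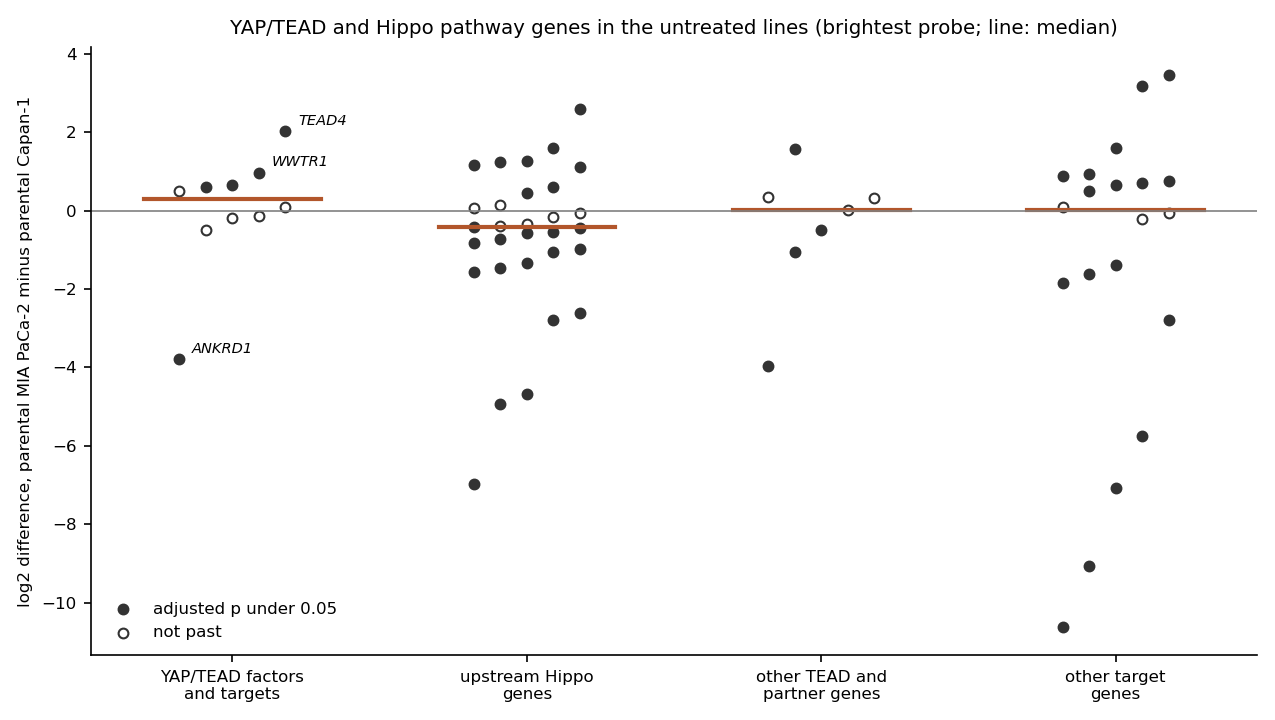
Difference between the untreated lines for the 10 genes and the 3 pathway lists. Each point is the brightest probe of 1 gene tested, the vertical axis is the log2 difference of parental MIA PaCa-2 minus parental Capan-1, filled points have a limma adjusted p under 0.05, and bars are medians. Each list spreads to both sides of 0, with medians of 0.30, -0.43, 0.03 and 0.02.

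The genes whose pattern was most like those of CYR61 and CTGF were found by Pearson's r over the 8 arrays after centring within each line, among 20290 probes well above background on all of them. The arrays share the 2 slides and the 4 groups, and the values are a description. For CYR61 they were NANOS1 (r = 0.99), NUPR2 (0.989), BRD8 (0.988), USP37 (0.988) and a probe with no gene name (0.986). For CTGF they were TMSL3 (0.982), PRPF40B (0.98), AMDHD1 (0.975), PIGN (0.966) and FAHD1 (0.96). The r between CYR61 and CTGF was -0.383, so neither was among the genes most like the other.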

How the data were processed

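RNA of 8 samples was hybridised to one-color arrays. The authors subtracted background and detrended spots (Agilent Feature Extraction 9.5.3) and deposited the intensity of each spot, with its flags. The log2 values they deposited for the series equal the log2 of these intensities, that is, values not scaled between arrays. Here, log2 intensities of unflagged spots of a probe were averaged and the 75th percentile over gene probes of each array was subtracted. Symbols were matched through the accession (24827 of 34127 probes). Tests were run on probes well above background on the 2 arrays of any group compared. The lmFit and eBayes functions of limma 3.58.1 (R 4.3.3) fitted group means, two-sided, with Benjamini-Hochberg adjustment over all probes tested and a threshold of 0.05. A gene of a list counts as higher or lower when a probe of it passes that way and none passes the opposite way. An exact permutation test of 2 arrays against 2 cannot give a p under 0.333. "At least" folds set the brighter group against, on each array, the higher of the lowest signal well above background and the dim probe's own. Named from the lists were the genes that passed (over 8: the 4 largest rises and falls; none: the 2 smallest p of the brightest probes), with MOB1B and the dimmer NT5E probe added after their values were seen. Of the genes so named, 2 are not reported here. The genes and lists were chosen with earlier results of these data known. On simulated data limma recovered 40.5% (MIA PaCa-2, 23622 probes) and 38.0% (Capan-1, 23278 probes) of 200 probes changed by 1, and 83.0% and 85.5% of those changed by 2. The interval rule used a window of 2000 probes, since the methods state none. Alternatives were normexp (offset 50), scaling, flagged spots, the deposited log2 values, filters, each line alone, the replicate block, an intensity trend and each array left out. Figures used Python 3.11.15 with numpy 2.4.6, pandas 2.3.3 and matplotlib 3.10.9, and in R data.table, version 1.17.8.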

Additional observations from a re-analysis of the deposited data

How the results depend on the processing

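With 2 arrays a group, changes under about 1 on the log2 scale were often not detectable, as the share recovered on simulated data shows. The count of the 10 genes past the threshold after siRNA in MIA PaCa-2, 0 as reported, became 2 with the normexp correction (CYR61 and AXL), 1 with quantile scaling (AXL), 1 with only probes above background on all arrays (AXL) and 2 when the spread followed an intensity trend (YAP1 and AXL). In Capan-1 it became 1 with the normexp correction (CYR61). For the difference between the lines it was 0 under every alternative run. Between the parental lines the count of 5 ranged from 4 to 6. With 1 array left out it was 0 for both siRNA comparisons and for their difference, and 5 to 6 between the parental lines. These fits call few probes at all, 3 to 210 in MIA PaCa-2, so a count of 0 there says little about stability. Over all probes, 455 passed in MIA PaCa-2, and this count ranged from 0 (each line alone, replicate block) to 1276 (intensity trend).

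Deviations of same-numbered arrays correlated at 0.0207 (MIA PaCa-2) and 0.0276 (Capan-1), so no pairing by replicate number was seen in the levels. The labels do not say whether same-numbered arrays were prepared together. With the replicate block 0 of the 10 genes passed in either line, 0 for the difference between lines, and 0 of all probes. The calls of STK4 (adjusted p = 0.17), BIRC5 (0.17), CCDC80 (0.172) and HOXB7 (0.169) in MIA PaCa-2 by limma were lost under the block. These 4 were also lost with each line fitted alone and without the filter on dim probes, and all but HOXB7 without scaling and with spike-in scaling. CCDC80 and HOXB7 were also lost with the normexp correction.

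Scaling moved the median of all probes after siRNA from 0.02 to -0.19 (no scaling) and -0.10 (spike-in scaling) in MIA PaCa-2, and from 0.00 to -0.16 and -0.39 in Capan-1, and small differences changed sign with it. In Capan-1 the difference became -0.12 and -0.35 for YAP1, -0.062 and -0.29 for WWTR1, -0.15 and -0.37 for CTGF, and -0.072 and -0.30 for AXL, without scaling and with spike-in scaling. In MIA PaCa-2 it became -0.22 and -0.12 for WWTR1 and -0.17 and -0.073 for TEAD4. That of WWTR1 was -0.0024 with flagged spots kept and from the deposited log2 table. With spike-in scaling the difference between the lines' effects became 0.17 for WWTR1, 0.24 for TEAD1 and 0.0026 for LATS2, and TEAD1 differed by -0.12 between the parental lines. LATS2 in Capan-1 became 0.0029 with quantile scaling, and TEAD2 there 0.061 with the normexp correction.

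With 1 array left out, the difference in Capan-1 ranged from -0.022 to 0.093 for YAP1, from -0.13 to 0.048 for TEAD1, from -0.26 to 0.29 for CTGF, from -0.13 to 0.10 for AMOTL2 and from -0.090 to 0.072 for LATS2. In MIA PaCa-2 it ranged from -0.071 to 0.071 for WWTR1, from -0.31 to 0.19 for TEAD1 and from -0.67 to 0.13 for LATS2. The difference between the effects ranged from -0.27 to 0.23 for TEAD1, from -0.021 to 0.53 for CTGF and from -0.66 to 0.14 for LATS2. None of these passed the test. The cause of these changes was not tested. The differences of named genes that passed, and those of YAP1, CYR61, AXL and AMOTL2 in MIA PaCa-2 and of CYR61 and ANKRD1 in Capan-1, kept their direction under every alternative run.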
